A study of Homo sapiens with 2 samples.

Results

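The BCL2 family sets the threshold at which a cell commits to death through its mitochondria. It was described here through the 10 genes MCL1, BCL2L1, BAX, BAK1, BCL2L11, BBC3, PMAIP1, BID, BIK and BAD, by every array probe set whose platform annotation carried exactly 1 of these symbols and no other. Of the 54675 probe sets on the array, 29 met this rule, and they report 9 of the 10 genes. BBC3, which encodes the BH3-only protein PUMA, appears only on a probe set that also names other genes, so it was not analysed here.

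Total RNA was measured in HCT116, an established human colon cancer line that grows as an epithelium in culture. The cells had been transfected with siRNAs against JMJD1A and JMJD1B together or with a control siRNA, and were analysed 2 days later. JMJD1A and JMJD1B, now called KDM3A and KDM3B, are enzymes that take methyl groups off lysine 9 of histone H3. The question is how transcript levels compare between the targeting and the control transfection. Each condition was represented by 1 array, so no value below has a replicate error, a test or a p-value. Higher and lower are those of the JMJD1A/JMJD1B siRNA array relative to the control siRNA array. The siRNA sequences and the number of siRNAs per gene are not given in the sources used here.

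BCL2 family proteins recognise each other through a short helix, the BH3 domain. The pro-survival members (MCL1 and BCL-XL, the product of BCL2L1) hold the others in check at the mitochondrial surface. BAX and BAK are the effectors, which assemble into pores in the outer mitochondrial membrane and let cytochrome c out. The BH3-only members (BIM from BCL2L11, PUMA, NOXA from PMAIP1, BID, BIK and BAD) are the sensors, each induced or activated by its own kinds of stress. They work by occupying the pro-survival proteins or by activating BAX and BAK. These proteins are controlled at the level of protein as well as RNA, and protein was not measured here.

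The median signal was 55.4 on the JMJD1A/JMJD1B siRNA array and 52.2 on the control siRNA array over all probe sets. The brightest KDM3B probe set read 496 on the JMJD1A/JMJD1B siRNA array and 3031 on the control siRNA array. The only measured KDM3A probe set read 3323 and 3884 in the same order. The KDM3A transcript thus differed much less (log2 ratio -0.22) than the KDM3B transcript (-2.61). The 2 measured KDM3B probe sets were at -2.61 and -3.13. The KDM3A ratio lies within the scatter over probe sets of the same gene (SD 0.54), so a lower KDM3A transcript is not shown beyond that scatter. All 8 colon epithelial markers looked up were measured, and their probe sets summed to a signal of 121776 on the JMJD1A/JMJD1B siRNA array and 79131 on the control siRNA array. KRT19, an epithelial keratin, was 2.39-fold higher and CDH1, the gene of E-cadherin, 2.16-fold higher, the 2 of the 8 past 2-fold. In the same order of arrays, KRT20 read 154 and 307 (log2 ratio -0.99) and CDX2 78.2 and 108 (-0.46), both lower. VIL1 read 104 and 86.2 (0.27), and 6 of the 8 markers were higher. Of 11 markers of leukocytes, endothelium and fibroblasts, 10 were found and 5 were measured, and the probe sets of all 10 summed to a signal of 1246 on the JMJD1A/JMJD1B siRNA array and 951 on the control siRNA array, with COL1A1 the brightest at 631 and 324. The leukocyte marker CD79A read 212 on the JMJD1A/JMJD1B siRNA array and 327 on the control siRNA array, and the endothelial marker PECAM1 158 and 116. Both were brighter than the colon markers CDX2 and VIL1. CD3E read 65.5 and 48.3 in that order and DCN 67.3 and 39.1, with control signals under the signal filter. The leukocyte marker PTPRC, the endothelial markers VWF and CDH5 and the fibroblast markers COL1A2 and COL3A1 lay below the signal filter. The part of these signals in the results was not tested. The hybridization control transcripts, added in equal amounts in the array maker's procedure, read a median of 0.61 higher on the log2 scale on the JMJD1A/JMJD1B siRNA array. Ratios keep the deposited scaling, so a log2 ratio between 0 and 0.61 would lie below 0 if the arrays were set level on these controls.

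Among the 9 genes, BIK and MCL1 were at least 2-fold higher on the JMJD1A/JMJD1B siRNA array, PMAIP1 was 1.58-fold higher and BAX was 1.53-fold lower. By their brightest probe sets the others stayed within the scatter over probe sets of the same gene (SD 0.54). In RNA from whole cultures, a change in every cell and a change in the share of cells that carry a transcript cannot be told apart. The 2 genes past 2-fold have opposite roles, BIK as a death sensor and MCL1 as a survival factor. A gene is represented by its probe set of highest mean log2 signal, and a probe set counts as measured if that mean reaches the median of all probe sets that are not controls, a signal of 50.4. By that rule 28 of the 29 probe sets and all 9 genes were measured. Among all 12561 measured genes, the share past 2-fold was 8.91% upward and 8.53% downward. Against that background 2 of 9 family members lay past 2-fold upward and 0 of 9 downward. With 9 genes these counts differ from the background shares by too few genes to be read as a property of the family. By direction alone, 4 of the 9 genes were higher and 5 lower, where 52.1% of all measured genes were higher. The median log2 ratio of the 9 genes was -0.01, and that of all measured genes was 0.04.

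The scatter between probe sets is the only error these data hold. Over the 6192 genes that had several measured probe sets, the log2 ratio of a single probe set had an SD of 0.54, and over the 1453 genes whose 2 brightest probe sets both reached a mean signal of 1000 it was 0.38. This SD describes how probes behave within these arrays and does not cover differences between cultures. Of the 9 members, 4 had a log2 ratio larger than 0.54 in size (BIK, MCL1, PMAIP1 and BAX) and 5 did not, where 44.9% of all measured genes did. BID, whose 2 brightest probe sets both reached 1000, lay past the SD of 0.38 at 0.45.

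**Figure D1:**
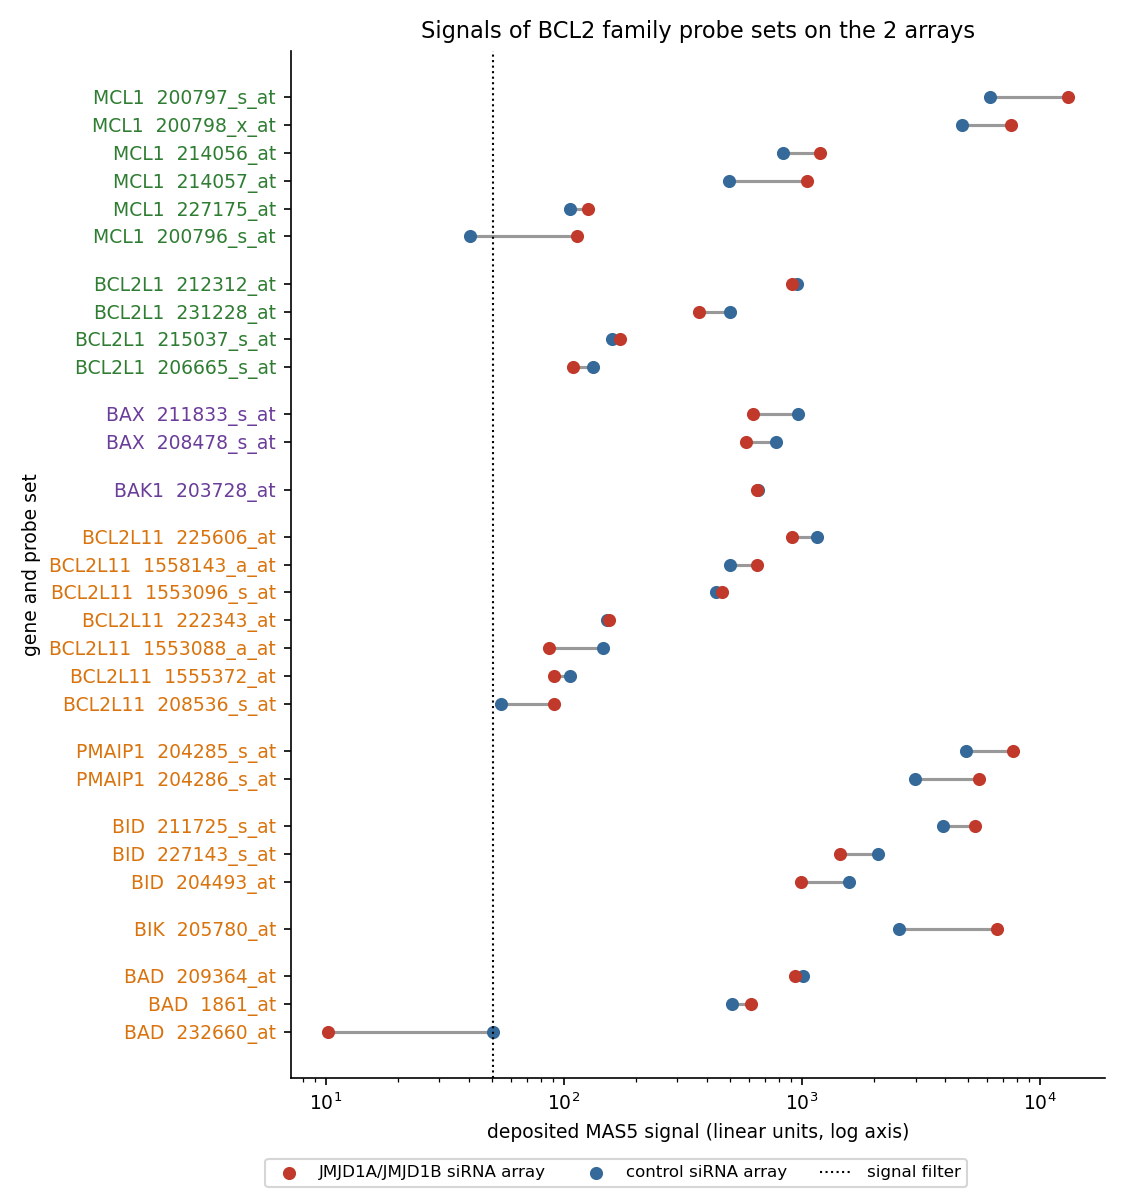
Deposited MAS5 signal (log axis) of each of the 29 BCL2 family probe sets on the JMJD1A/JMJD1B siRNA array (red) and the control siRNA array (blue), with gene names coloured by role (green, pro-survival; purple, effectors; orange, BH3-only). All 6 MCL1 probe sets, both PMAIP1 probe sets and the BIK probe set lie to the right on the JMJD1A/JMJD1B siRNA array, and both BAX probe sets lie to the left; the dotted line is the signal filter of 50.4.

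MCL1 encodes a pro-survival protein that is degraded within a short time of its synthesis. Its brightest probe set read 13078 on the JMJD1A/JMJD1B siRNA array and 6184 on the control siRNA array, 2.11-fold higher (log2 ratio 1.08). The next read 7582 on the JMJD1A/JMJD1B siRNA array and 4715 on the control siRNA array, a log2 ratio of 0.69. Both are bright, and the signal was higher with the JMJD1A/JMJD1B siRNAs in each. Next in brightness, one probe set read 1194 and 836 in the same order of arrays (log2 ratio 0.51), and another read 1049 and 494 (1.09). The remaining pair was dim, at 126 on the JMJD1A/JMJD1B siRNA array and 106 on the control siRNA array (0.25), and at 114 and 40.5 (1.49). Since 40.5 lies under the filter, the last difference is at least 2.26-fold when the control signal is raised to the filter. All 6 MCL1 probe sets were thus higher on the JMJD1A/JMJD1B siRNA array, with a mean log2 ratio of 0.85 and an SD of 0.45 over the 6 probe sets, which share the RNA and the array. By that mean the MCL1 difference is 1.80-fold and stays short of 2-fold. Of all measured genes, 7.34% had a higher ratio than the brightest MCL1 probe set.

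BCL2L1, the gene of the other pro-survival member analysed, showed no such difference. Its brightest probe set read 905 on the JMJD1A/JMJD1B siRNA array and 956 on the control siRNA array, a log2 ratio of -0.08. The other probe sets read 369 with the JMJD1A/JMJD1B siRNAs and 499 with the control siRNA (-0.44), 172 and 159 (0.11), and 109 and 132 (-0.27). Of the 4, 3 were lower and 1 was higher, and none exceeded the probe-set SD. The log2 ratio of MCL1 exceeded that of BCL2L1 by 1.16 by the brightest probe sets and by 1.02 by the means over probe sets. A difference between ratios of 2 genes on the same arrays does not depend on the factor by which either array was scaled. It does depend on corrections that vary with signal. By loess MCL1 stood at 0.88 and BCL2L1 at 0.01, and by quantile normalization at 0.90 and 0.03.

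The effectors were level or lower. BAX, which moves from the cytosol to mitochondria when activated, read 625 on the JMJD1A/JMJD1B siRNA array and 959 on the control siRNA array by its brighter probe set, a log2 ratio of -0.62 with 65.2% of the control signal left. The other BAX probe set read 584 on the JMJD1A/JMJD1B siRNA array and 776 on the control siRNA array, a log2 ratio of -0.41. Both probe sets were lower, and BAX was the only member with 2 or more measured probe sets that were all lower. BAK1, reported by a single probe set, read 649 on the JMJD1A/JMJD1B siRNA array and 654 on the control siRNA array (log2 ratio -0.01). The BAK1 signals thus differed by less than the probe-set scatter by a wide margin.

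Among the sensors, BIK stood highest of all 9 genes. BIK encodes a BH3-only protein that sits in the membrane of the endoplasmic reticulum. Its 1 probe set read 6575 on the JMJD1A/JMJD1B siRNA array and 2553 on the control siRNA array, 2.58-fold higher (log2 ratio 1.36). Of all measured genes, 3.73% had a higher ratio. With no second probe set, the BIK value has no check within the gene, and its ratio was 2.55 times the probe-set SD. BIK exceeded BAX by 1.98 and BAK1 by 1.38 on the scale of log2 ratios, differences that 1 scaling factor per array leaves as they are. Corrections that vary with signal narrow them. By loess BIK stood at 1.30, BAX at -0.52 and BAK1 at 0.08, and by quantile normalization at 1.33, -0.51 and 0.08.

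PMAIP1 encodes NOXA, the BH3-only protein that binds MCL1 with preference and promotes its degradation. Its brighter probe set read 7701 on the JMJD1A/JMJD1B siRNA array and 4867 on the control siRNA array (log2 ratio 0.66), and the other read 5556 and 2998 in that order (0.89). Both PMAIP1 probe sets were higher, by 1.58-fold and 1.85-fold, neither reaching 2-fold. The transcripts of MCL1 and of its partner NOXA were therefore both higher on the same array, with log2 ratios that differed by 0.42 by the brightest probe sets and by 0.08 by the means.

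PMAIP1 and BAX are the members with at least 2 measured probe sets, all on the same side of 0, whose promoters are in the RefSeq promoter table used here, and they lie on opposite sides. Of the 9 analysed genes 7 had a promoter there; MCL1 and BIK are named only. The 250 bases before each start (GRCh38.p14) are shown so that both can be read side by side. PMAIP1 lies at chr18:59899746-59899995 on the plus strand and BAX at chr19:48954625-48954874 on the plus strand. In PMAIP1 the capitals mark the single match to TGACG, the half-site of the cAMP response element, here on the reverse strand, whose first base lies 55 bases before the start. In BAX they mark the 4 matches to CACGTG, the E-box bound by MYC, MAX and related factors.
PMAIP1: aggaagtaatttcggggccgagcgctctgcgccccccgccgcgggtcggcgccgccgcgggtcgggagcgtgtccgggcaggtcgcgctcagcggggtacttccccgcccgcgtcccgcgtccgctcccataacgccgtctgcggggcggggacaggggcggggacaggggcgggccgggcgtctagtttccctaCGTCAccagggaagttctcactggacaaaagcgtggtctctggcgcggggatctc
BAX: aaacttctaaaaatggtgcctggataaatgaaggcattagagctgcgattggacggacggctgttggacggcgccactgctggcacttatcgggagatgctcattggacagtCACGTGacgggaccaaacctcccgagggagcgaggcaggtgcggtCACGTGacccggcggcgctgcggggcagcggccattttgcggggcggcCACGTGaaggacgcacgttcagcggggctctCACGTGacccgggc

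The E-boxes of BAX begin 138, 93, 45 and 14 bases before the start. Of the 35116 promoter windows in the table, cut to the same 250 bases and read on both strands, 6.34% hold at least 1 CACGTG and 5 windows hold 4 or more. MYC itself read 11173 on the JMJD1A/JMJD1B siRNA array and 15044 on the control siRNA array (log2 ratio -0.43), within the probe-set SD. TGACG is common, with at least 1 match in 21.2% of windows, and the BAX window holds 1 as well, overlapping its first E-box. Neither motif is particular to these members. CACGTG also occurs in some windows of BID and in that of BBC3, and TGACG in windows of BAD and in a window of BCL2L1. The GC box GGGCGG, which 42.6% of windows hold, occurs 4 times in the PMAIP1 window and 1 time in the BAX window. The hypoxia element core ACGTG lies inside every CACGTG, so its 9 matches in the BAX window, counted on both strands, largely repeat the E-boxes. The PMAIP1 window holds no ACGTG and 2 matches to the other form of that core, GCGTG, which 32.2% of windows hold. The motifs were picked with the ratios known, binding was not measured, and the letters are a description only.

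BCL2L11 encodes BIM, a sensor that binds all pro-survival members and activates BAX. It had 7 measured probe sets, more than any other member, and they did not share a direction. The brightest read 908 on the JMJD1A/JMJD1B siRNA array and 1154 on the control siRNA array (log2 ratio -0.35), and the next 650 and 499 in that order (0.38). The one after these read 463 with the JMJD1A/JMJD1B siRNAs and 436 with the control siRNA (0.09). Of the 7, 4 were higher and 3 lower. Their extremes were both dim, at -0.74 for signals of 87.0 and 145 and at 0.74 for signals of 91.1 and 54.3. The mean over BCL2L11 probe sets was -0.01 with an SD of 0.49, so no direction of its own can be given for the gene. BCL2L11 is spliced into several transcripts, and which of them each probe set reads is not given in the files.

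BID encodes the sensor that caspase-8 cleaves, which joins the death receptor route to mitochondria. Its probe sets split by direction. The brightest read 5321 on the JMJD1A/JMJD1B siRNA array and 3901 on the control siRNA array, a log2 ratio of 0.45. The other 2 were lower, with 1439 on the JMJD1A/JMJD1B siRNA array and 2094 on the control siRNA array (-0.54), and with 987 and 1583 (-0.68). All 6 BID signals were far above the filter. The probe set that was higher is also the brightest, and the part of signal level in the split was not tested. Choosing the brightest probe set puts BID above 0, and averaging puts it at -0.26 with an SD of 0.62 over the 3 probe sets, the largest SD among the members with several measured probe sets.

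BAD encodes a sensor that growth factor signalling silences by phosphorylation. Its brightest probe set read 932 on the JMJD1A/JMJD1B siRNA array and 1011 on the control siRNA array (log2 ratio -0.12), and the second read 609 and 506 in that order (0.27). The dimmest read 10.2 on the JMJD1A/JMJD1B siRNA array and 50.2 on the control siRNA array. Both of its signals lay below the filter and no fold is given for it. The measured BAD probe sets differed from 0 by less than the probe-set SD on either side.

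**Figure D2:**
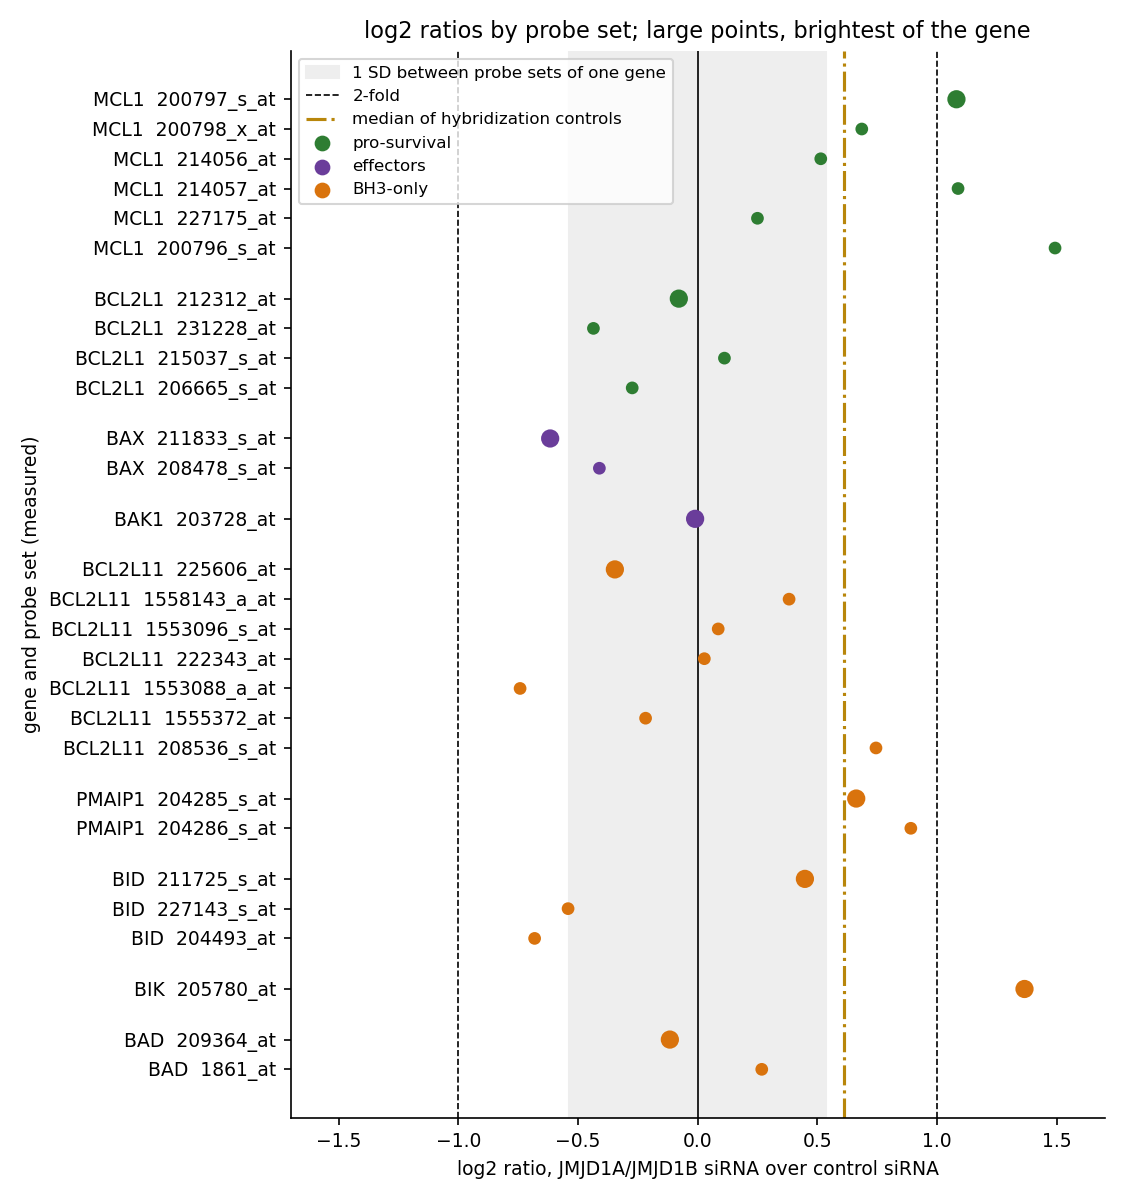
log2 ratio (JMJD1A/JMJD1B siRNA over control siRNA) of the 28 measured BCL2 family probe sets, by gene, with the brightest probe set of each gene as a large point. MCL1 and PMAIP1 probe sets all lie right of 0 and BAX probe sets left of it, while BCL2L11, BID, BCL2L1 and BAD lie on both sides; the grey band is 1 SD between probe sets of the same gene (0.54) and the dash-dotted line is the median of the hybridization controls (0.61).

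Agreement between probe sets thus differed from member to member. Of the 7 members with 2 or more measured probe sets, 4 had ratios on both sides of 0, 2 had all probe sets above 0 (MCL1 and PMAIP1) and 1 had all below (BAX). Over all genes with several measured probe sets, 40.5% had ratios on both sides of 0. With 7 members, the count of 4 is too close to that share to be read as a property of the family. These members had from 2 (BAX) to 7 (BCL2L11) measured probe sets, and the part of that number was not tested. Counted by probe set, 4 of the 28 lay past 2-fold upward (3 of MCL1 and that of BIK) and 0 downward. The background over all 23360 measured probe sets with 1 gene symbol was 8.88% higher and 10.4% lower.

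**Figure D3:**
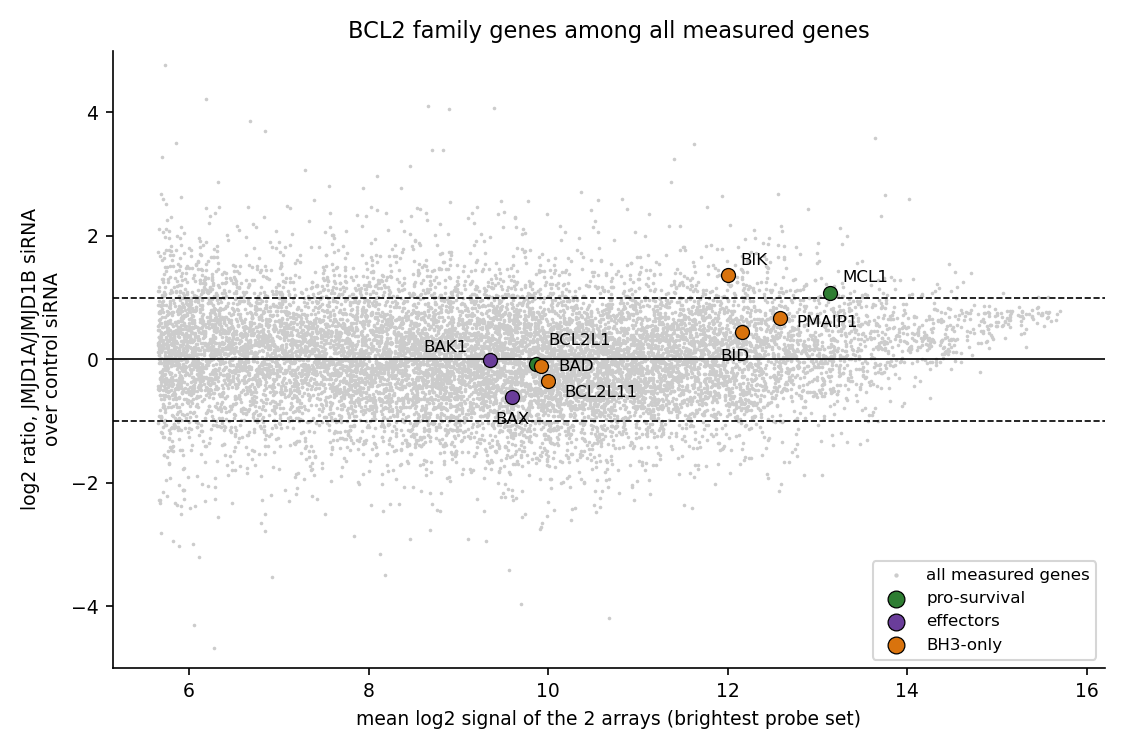
log2 ratio (JMJD1A/JMJD1B siRNA over control siRNA) against the mean log2 signal of both arrays for 12561 measured genes (grey; 1 gene lies beyond the axis), with the 9 BCL2 family genes coloured by role. BIK at 1.36 and MCL1 at 1.08 lie above the upper 2-fold line, and the other 7 lie between the 2-fold lines.

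The scale of the arrays bears on these ratios. Setting the arrays level on the hybridization controls leaves BIK at 0.75, MCL1 at 0.47 and PMAIP1 at 0.05, still above 0, and puts the other 6 below 0, with BAX at -1.23. On that scale 0 members would lie past 2-fold upward and 1 downward, where 2.15% of all measured genes would lie past it upward and 27.7% downward. After removal of the trend of the ratio with signal by loess, BIK stood at 1.30 and MCL1 at 0.88, and after quantile normalization at 1.33 and 0.90. The order BIK, MCL1, PMAIP1 at the top and BAX at the bottom was the same on the deposited, loess and quantile scales, and the control scale keeps the deposited order by construction. Which scale reflects the amount of RNA per cell cannot be told apart with 1 array per condition.

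**Figure D4:**
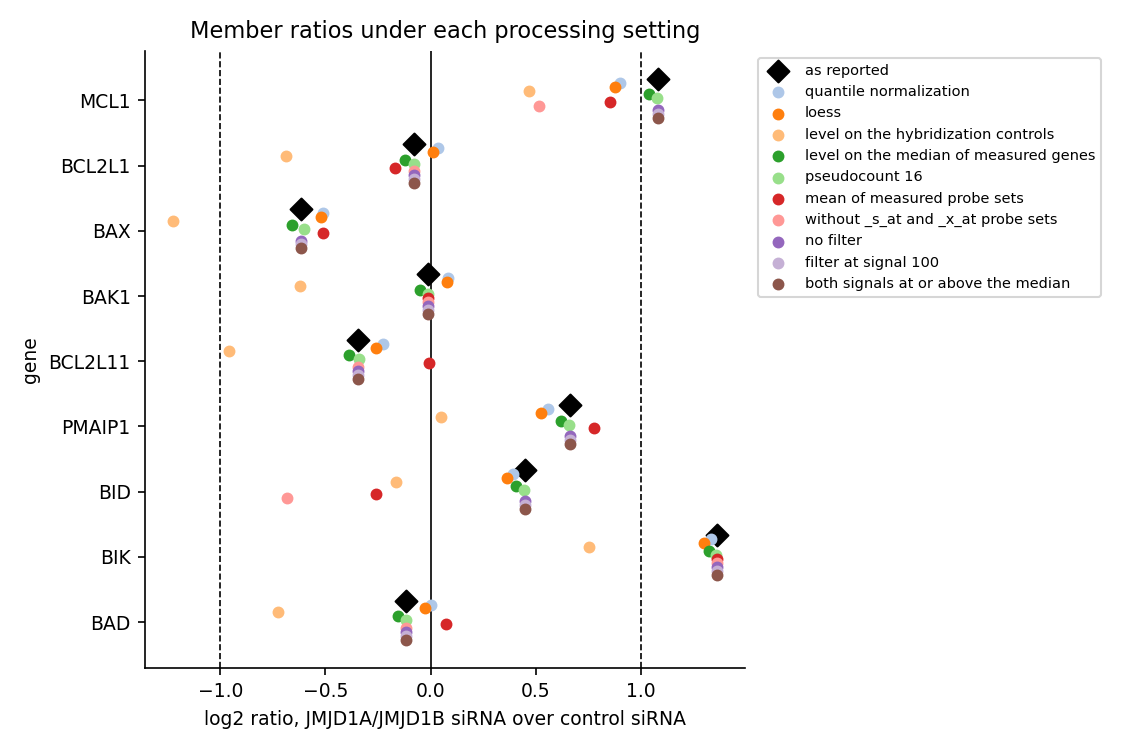
log2 ratio (JMJD1A/JMJD1B siRNA over control siRNA) of the 9 BCL2 family genes as reported (black diamonds) and under 10 other processing settings (coloured points, spread vertically for sight only). BIK, MCL1 and PMAIP1 lie right of 0 and BAX left of it under each setting that gives them a value, while BID changes side between the brightest probe set (0.45) and the mean of probe sets (-0.26).

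Genes around the 10 members were read from lists. Of 14 other BCL2 homologues and BH3 proteins, 11 were measured, and 3 of these lay past 2-fold upward and 1 downward, beside 8.91% and 8.53% of all measured genes, with a median log2 ratio of 0.29 beside 0.04. By the mean of probe sets the counts were 2 upward and 1 downward, beside 7.79% and 7.84% of all measured genes. With the arrays level on the hybridization controls they were 0 and 3, beside 2.15% and 27.7%. BNIP3 and BNIP3L, mitophagy receptors with a BH3-like segment and known targets of hypoxia-inducible factors, were the highest. BNIP3L read 15826 on the JMJD1A/JMJD1B siRNA array and 5845 on the control siRNA array (2.71-fold, with its probe sets at 1.44 and 2.24 on the log2 scale). BNIP3 read 22911 on the JMJD1A/JMJD1B siRNA array and 9071 on the control siRNA array (2.53-fold, probe sets at 1.34 and 1.72). HRK, a BH3-only gene best known from neurons, read 314 with the JMJD1A/JMJD1B siRNAs and 154 with the control siRNA (2.04-fold), and its other probe set was lower, at -0.42. BCL2L2, the gene of the pro-survival protein BCL-W, read 526 on the JMJD1A/JMJD1B siRNA array and 1113 on the control siRNA array, 2.11-fold lower. Beside MCL1, BCL2L1 and BCL2L2, the pro-survival homologues BCL2 and BCL2L10 were measured and lay under 2-fold, BCL2 at 0.17 with its probe sets at -0.83 and 0.17, and BCL2L10 at 0.92 with a control signal under the filter (at least 1.87-fold higher).

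Downstream of BAX and BAK1, none of the 10 measured genes of the mitochondrial apoptosis machinery (cytochrome c, the apoptosome, released activators and the VDAC channels) differed 2-fold by the brightest probe set, with a median of 0.27. CYCS, the gene of cytochrome c, had a log2 ratio of 0.07 by that probe set, but its 3 measured probe sets ran between -2.27 and 0.07, and by their mean it was the 1 gene of the list past 2-fold downward. By the brightest probe sets the largest difference was in AIFM1, a flavoprotein of the space between the mitochondrial membranes, which read 1116 on the JMJD1A/JMJD1B siRNA array and 1969 on the control siRNA array (-0.82). Upstream of BID, none of the 7 genes of the death receptor route differed 2-fold by the brightest probe set, with a median of -0.06. CFLAR, the gene of the caspase-8 inhibitor c-FLIP, had the largest ratio at 0.84, with its 10 measured probe sets between -1.15 and 0.84. Of all measured genes, 8.91% lay past 2-fold upward and 8.53% downward. In lists of 10 and 7 genes, a count of 0 is too close to these shares to be read as a result. With the arrays level on the hybridization controls, each of these 2 lists had 0 genes past 2-fold upward and 1 downward, beside 2.15% and 27.7%.

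Of 11 measured genes whose proteins control the stability of MCL1 or BIM, 0 lay past 2-fold upward and 2 downward. Of all measured genes, 8.91% and 8.53% did. The list median was -0.22. With the arrays level on the hybridization controls the counts were 0 and 4, beside 2.15% and 27.7% of all measured genes. USP13, a deubiquitinase, read 593 on the JMJD1A/JMJD1B siRNA array and 1296 on the control siRNA array (-1.13, with its 3 probe sets between -1.13 and -0.87). CUL5, a cullin scaffold of ubiquitin ligases, read 1762 on the JMJD1A/JMJD1B siRNA array and 3638 on the control siRNA array (-1.05), but its 4 probe sets ran between -1.05 and 0.82. By the mean of probe sets neither was 2-fold lower. Of 13 measured transcription factors known to act on BCL2 family genes, 2 lay past 2-fold upward and 0 downward, beside the same shares of 8.91% and 8.53%, and the list median was 0.21. On the scale of the hybridization controls 1 lay past it upward and 5 downward, beside 2.15% and 27.7% of all measured genes. The balance of the list thus depends on the scale, as does that of all measured genes. EGR1, an immediate early factor, read 13022 on the JMJD1A/JMJD1B siRNA array and 3697 on the control siRNA array (3.52-fold, its 3 probe sets between 1.80 and 1.95). DDIT3 encodes the stress factor CHOP, which induces BIM. By its 1 measured probe set DDIT3 read 867 on the JMJD1A/JMJD1B siRNA array and 369 on the control siRNA array (2.35-fold). A link between DDIT3 and BCL2L11 was not tested.

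**Figure D5:**
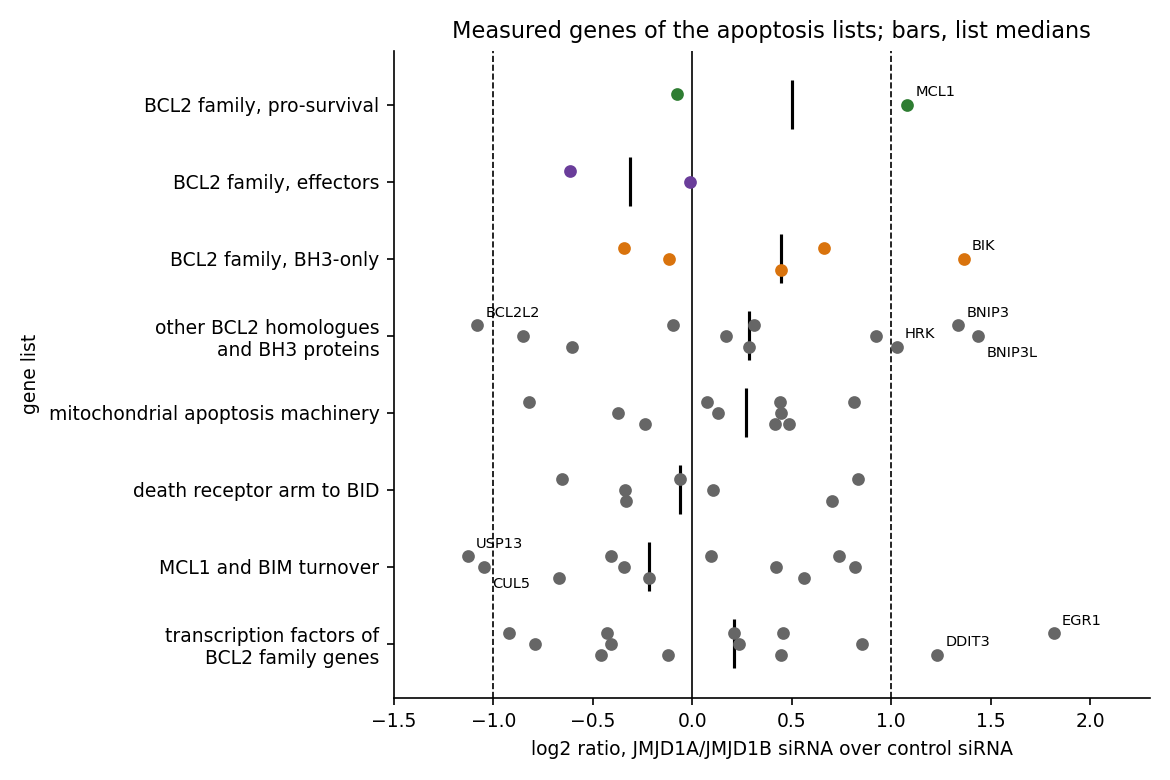
log2 ratio (JMJD1A/JMJD1B siRNA over control siRNA) of each measured gene in 8 lists of the mitochondrial apoptosis pathway, by the brightest probe set, with the list median as a black bar and genes at or past 2-fold named. Each list spans 0 except the BAX and BAK1 pair, which lies at -0.62 and -0.01.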

How the data were processed

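The deposited values are linear signal intensities of 54675 probe sets on 2 single-channel arrays. MAS5 made them, as the submitters' processing notes name it; its version and settings are not given in the sources used here. Both deposited columns share a trimmed mean intensity of 500.1 (2% cut from either tail), which is what scaling by 1 factor per array gives. Both columns were matched to a sample. Gene names come from the platform annotation, in which 41091 carried 1 gene symbol, 1801 several and 11721 none among those that are not controls; 41037 of those with 1 symbol had a gene ID in the RefSeq table, including those of all 9 members, whose symbols were unchanged. Ratios are differences of log2 signals, with no pseudocount added. With 1 array per condition nothing was tested, and precision is limited by the number of arrays. The scatter was computed from the 2 brightest measured probe sets of each gene. Promoters are RefSeq's, from GRCh38.p14. The calculation was tested on simulated data with larger changes than the members show and less scatter than these arrays hold. That checks the code only and says nothing on how reliable the 2-fold calls are here. The text names all members, KDM3A and KDM3B. From each other list it names up to 4 measured genes past 2-fold by size, or the largest where none was. Named outside this rule were MYC, CYCS, BCL2, BCL2L10, KRT20, CDX2, VIL1, PTPRC, CD79A, CD3E, PECAM1, VWF, CDH5, COL1A1, COL1A2, COL3A1 and DCN. Members and lists were chosen with earlier results of these data known. Python 3.11.15, numpy 2.4.6, pandas 2.3.3 and statsmodels 0.14.6 (loess, span 0.3) were used.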

Additional observations from a re-analysis of the deposited data

Results flagged for a closer look

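The hybridization controls lie outside the gene comparison. All 18 of their probe sets gave a log2 ratio of JMJD1A/JMJD1B siRNA over control siRNA above 0, with a median of 0.61 and a range of 0.40 to 0.71. They report few transcripts and are not 18 independent observations.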

How the results depend on the processing

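The count of members at least 2-fold higher was 2 as reported. It was 1 after quantile normalization, after loess, by the mean of measured probe sets and without _s_at and _x_at probe sets, where BIK remained past 2-fold and MCL1 did not (0.90, 0.88, 0.85 and 0.51). In that order, 9.21%, 8.90%, 7.79% and 9.07% of all measured genes were at least 2-fold higher. The count was 0 with the arrays level on the hybridization controls (2.15% of all measured genes) and at a 3-fold threshold (2.28%). It was 3 at a 1.5-fold threshold (21.7%). The count at least 2-fold lower was 0 as reported (8.53% of all measured genes). It was 1, BAX, on the scale of the hybridization controls (27.7%) and at a 1.5-fold threshold (19.5%). With 9 genes these counts are too close to the shares to be read as a result about the members. The median of the members was -0.01 as reported and -0.62 with the controls as level, where that of all measured genes was -0.57. Leaving out _s_at and _x_at probe sets left 7 members, without BAX and PMAIP1, and put BID at -0.68. The other alternatives (the median of measured genes as level, a pseudocount of 16 and 3 other filters) changed neither count. No paired analysis was possible because each group held 1 array. What 1 array per condition limits is every difference here, since the spread between cultures is unknown.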
